A study of Mus musculus with 4 samples.

Results

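Transcript levels of the CD34 sialomucin family, the endothelial selectins and their leukocyte ligand were compared between 2 kinds of FAP+ stromal cell from mouse pancreatic cancer. The genes were chosen by name, and 7 of the 22609 genes of the count table, which writes them in lower case, are described: cd34, podxl, podxl2, cd164, selp, sele and selplg. FAP+ CD34+ cells (2 libraries) were set against FAP+ CD34- cells (2 libraries). Both were sorted by flow cytometry from tumours of mice with a C57BL/6 background in which pancreatic ductal adenocarcinoma arises spontaneously, and the cells were isolated in duplicate experiments. FAP (fibroblast activation protein) is a surface protease of tumour stroma, and both groups were sorted for it. The sources used here give neither the alleles that drive the tumours nor the age of the mice or the number of animals behind a library, and the p-values measure the spread between these biological replicates. The study concerns CXCL12 made by FAP-expressing fibroblasts, and splitting the cells by CD34 asks how FAP+ cells with and without this surface protein differ.

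Sialomucins are membrane proteins with a long extracellular stretch of serine and threonine that carries sugar chains ending in sialic acid. CD34, podocalyxin (Podxl) and endoglycan (Podxl2) form a family with a related stalk and cytoplasmic tail, made by endothelium, blood progenitors and, for podocalyxin, kidney podocytes. CD34 also marks many resident fibroblasts. Selectins are lectins that bind such sugar chains and slow leukocytes on the vessel wall: P-selectin (Selp) is stored in granules of endothelium and platelets, and E-selectin (Sele) is made by endothelium after inflammatory cytokines. PSGL-1 (Selplg) is the main leukocyte ligand of P-selectin, and endolyn (Cd164) is a sialomucin of endosomes and the cell surface outside the CD34 family.

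Promoter windows of 4 members are shown, Cd34 and Selp because they had the largest log2 fold changes among the members. Sele was added as the other endothelial selectin, and Cd164 because it lay lower in FAP+ CD34+ libraries. Each window runs from 250 bases before to 50 after the annotated start, 5′ to 3′ on the gene's strand, from RefSeq on GRCm38.p6, a different build than the mm9 of the counts. The windows are chr1:194938571-194938870 for Cd34, chr1:164115014-164115313 for Selp, chr1:164047984-164048283 for Sele and chr10:41519250-41519549 for Cd164, all on the plus strand. Capitals mark the letters TATAAA of a TATA box, the letters GGGCGG of a GC box and, for the core of ETS factor sites, AGGAAG, each on either strand; 2 neighbouring GGGCGG matches on the opposite strand of Cd164 share a base.
Cd34: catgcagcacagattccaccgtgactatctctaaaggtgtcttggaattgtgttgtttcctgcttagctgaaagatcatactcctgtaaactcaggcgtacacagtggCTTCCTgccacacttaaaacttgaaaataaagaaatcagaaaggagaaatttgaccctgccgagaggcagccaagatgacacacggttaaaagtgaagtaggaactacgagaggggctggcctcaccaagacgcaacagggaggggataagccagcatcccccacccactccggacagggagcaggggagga
Selp: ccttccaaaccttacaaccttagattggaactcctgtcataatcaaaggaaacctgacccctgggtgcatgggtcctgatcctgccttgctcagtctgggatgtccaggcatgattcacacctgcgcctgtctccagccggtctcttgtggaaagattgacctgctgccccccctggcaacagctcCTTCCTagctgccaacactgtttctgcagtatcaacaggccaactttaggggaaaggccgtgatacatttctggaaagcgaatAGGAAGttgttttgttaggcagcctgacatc
Sele: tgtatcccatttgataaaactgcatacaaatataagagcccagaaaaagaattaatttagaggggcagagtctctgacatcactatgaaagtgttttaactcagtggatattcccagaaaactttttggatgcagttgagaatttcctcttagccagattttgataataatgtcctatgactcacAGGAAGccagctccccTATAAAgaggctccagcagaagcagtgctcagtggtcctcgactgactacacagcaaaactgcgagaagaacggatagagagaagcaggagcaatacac
Cd164: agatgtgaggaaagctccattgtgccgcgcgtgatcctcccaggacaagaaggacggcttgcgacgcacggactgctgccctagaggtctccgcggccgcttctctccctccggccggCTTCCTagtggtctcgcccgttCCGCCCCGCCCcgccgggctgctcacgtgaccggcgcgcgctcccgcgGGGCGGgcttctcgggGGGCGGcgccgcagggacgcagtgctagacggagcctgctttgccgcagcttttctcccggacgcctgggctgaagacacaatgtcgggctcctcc

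TATAAA stood in the window of Sele, 49 bases before its start, and in none of the other 3. It was in 13.6% of all 32851 windows of this length. GGGCGG was found 4 times in Cd164 and 0 times in Cd34, Selp and Sele, against 35.7% of all windows with at least 1. AGGAAG was found in all 4 windows and in 35.4% of all windows. The Cd164 window was 70.0% G and C, against 51.7% for Selp, 41.7% for Sele and a median of 52.7% over all windows. These matches describe letters and are no evidence of binding. A window was found for 5 of the 7 genes; the fifth, Podxl2, has 3 annotated starts and is not printed, and Podxl and Selplg are named only.

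Total counts were between 10322354 and 14633561 a library, and 13875 genes, all 7 members described among them, had enough counts to be tested. Levels are given as CPM, counts scaled to a common library total. Fold changes are FAP+ CD34+ over FAP+ CD34- with edgeR's quasi-likelihood test, and p is adjusted over all tested genes by Benjamini-Hochberg with a threshold of 0.05. RNA was amplified from the poly(A) tail before sequencing, so reads are not independent molecules. As the cells were sequenced in bulk, fewer cells of a type and less RNA per cell cannot be told apart. The general fibroblast markers were abundant in every library, with Col1a2 at 15840 and 15933 CPM in FAP+ CD34+ and 18149 and 16244 CPM in FAP+ CD34- libraries.

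Among the sialomucins of the CD34 family, Cd34 lay far higher in the fraction sorted for its protein, while the libraries of both fractions overlapped for its relatives Podxl and Podxl2. Cd34 was 143 and 293 CPM in FAP+ CD34+ replicates 1 and 2, against 18.3 and 23.9 CPM in FAP+ CD34- replicates 1 and 2. The groups were far apart, the FAP+ CD34+ libraries differed between themselves by 2.05-fold, and FAP+ CD34- cells kept a measurable level. Mean levels were 218 ± 106 CPM in FAP+ CD34+ and 21.1 ± 3.97 CPM in FAP+ CD34- libraries (SD, n = 2 each). The log2 fold change was 3.37 (SE 0.43), a 10.3-fold difference, which missed the threshold (adjusted p = 0.141, edgeR). Since CD34 protein was the basis of the sort, this is a check of the gate. Fap, the other sort marker, was present in all 4 libraries, at 79.0 and 39.8 CPM in FAP+ CD34+ and 142 and 136 CPM in FAP+ CD34- libraries. It was thus lower in both FAP+ CD34+ libraries (log2 fold change -1.20, SE 0.37, adjusted p = 0.230, edgeR). Podxl, which in the kidney keeps the foot processes of podocytes apart, was 9.30 and 11.3 CPM in FAP+ CD34+ and 9.53 and 8.68 CPM in FAP+ CD34- libraries. These values overlapped (log2 fold change 0.20, SE 0.33, adjusted p = 0.784, edgeR). Podxl2, a known selectin ligand of endothelium, was 38.8 and 50.6 CPM in FAP+ CD34+ libraries and 31.1 and 40.5 CPM in FAP+ CD34- libraries. Here too the ranges crossed (log2 fold change 0.33, SE 0.28; adjusted p = 0.584, edgeR). On log2 values of the deposited RPKM and FPKM the signs of Podxl and Podxl2 turned, but the median of all genes was also lower there, at -0.31 to -0.42. Relative to that median Podxl was 0.15 to 0.21, and Podxl2 was 0.24 and 0.34 on RPKM and -0.06 on FPKM.

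**Figure D1:**
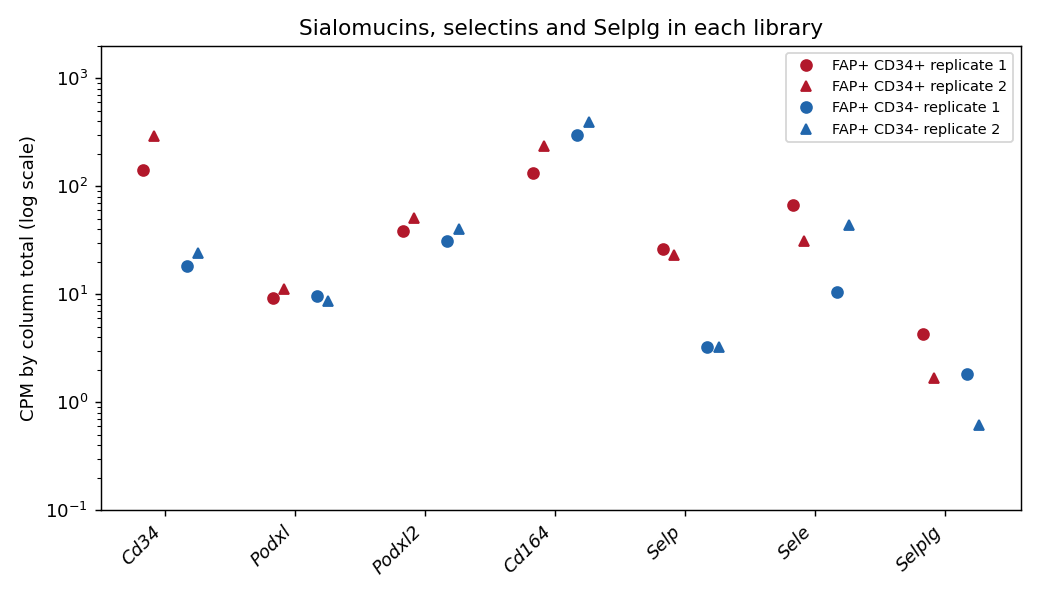
CPM by column total (log axis) of the 7 genes in each library; red marks FAP+ CD34+ and blue FAP+ CD34- libraries, circles replicate 1 and triangles replicate 2. Cd34 and Selp lie higher in both FAP+ CD34+ libraries and Cd164 lower, while the other 4 overlap.

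Cd164 was the member that lay lower in FAP+ CD34+ cells. It was 132 and 238 CPM in FAP+ CD34+ libraries, against 299.6 and 395 CPM in FAP+ CD34- libraries. All of the FAP+ CD34- values were above both FAP+ CD34+ values, and the closest pair was 238 and 299.6 CPM. The log2 fold change of -0.90 (SE 0.37), 1.87-fold lower, did not pass (adjusted p = 0.305, edgeR). It was -0.56 without FAP+ CD34+ replicate 1, -0.58 without FAP+ CD34- replicate 2 and -1.36 without FAP+ CD34+ replicate 2.

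Of Selp and Sele, Selp separated the fractions with the least scatter. It was 26.2 and 22.9 CPM in FAP+ CD34+ libraries and 3.25 and 3.21 CPM in FAP+ CD34- libraries, from 270 and 312 reads against 43 and 47. The means were 24.5 ± 2.33 CPM in FAP+ CD34+ and 3.23 ± 0.0292 CPM in FAP+ CD34- libraries (SD, n = 2 each). The replicates differed by 1.14-fold within FAP+ CD34+ and 1.01-fold within FAP+ CD34- cells, and the groups lay far apart. The log2 fold change was 2.94 (SE 0.31), or 7.66-fold. Selp had the 6th smallest p of the 13875 genes and Cd34 the 19th, and 1.02% of genes had a larger log2 fold change than Selp. Like every other gene in this fit it missed the threshold (adjusted p = 0.134, edgeR). Alternatives under which it passed included DESeq2 (adjusted p = 3.7e-09), edgeR's exact test (2.5e-09), edgeR with no filter on low counts (0.0020) and limma on log2(RPKM + 0.1) (0.048), and over all alternatives its adjusted p ran from 2.5e-09 to 0.630. DESeq2 called 2.85% of all tested genes higher and 1.3% lower. Cd34 passed under these as well. Without any 1 library the log2 fold change of Selp stayed between 2.82 and 3.05.

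Sele, the cytokine-induced selectin, was 67.0 and 31.0 CPM in FAP+ CD34+ libraries and 10.5 and 43.6 CPM in FAP+ CD34- libraries. FAP+ CD34- replicate 2 lay above FAP+ CD34+ replicate 2, so the groups overlapped, and the FAP+ CD34- libraries differed by 4.15-fold. The log2 fold change was 0.84 (SE 0.71, adjusted p = 0.574, edgeR). It was 2.34 without FAP+ CD34- replicate 2 (adjusted p = 0.406, edgeR; 0.360 to 0.965 over all alternatives) but 0.13 without FAP+ CD34- replicate 1 and 0.15 without FAP+ CD34+ replicate 1. F5, the gene of coagulation factor V next to Selp on chromosome 1 in the GRCm38 annotation, was 8.82 and 23.7 CPM in FAP+ CD34+ libraries and 16.4 and 18.8 CPM in FAP+ CD34- libraries, and overlapped.

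Selplg, the leukocyte ligand, was low throughout, at 4.26 and 1.68 CPM in FAP+ CD34+ libraries and 1.82 and 0.615 CPM in FAP+ CD34- libraries. These were 44 and 23 reads against 24 and 9, and the groups overlapped because FAP+ CD34- replicate 1 lay above FAP+ CD34+ replicate 2. The log2 fold change was 1.33 (SE 0.74, adjusted p = 0.406, edgeR). It was 0.50 without FAP+ CD34+ replicate 1 and 2.20 without FAP+ CD34- replicate 1. Ptprc, the pan-leukocyte gene CD45, was 5.52 and 3.74 CPM in FAP+ CD34+ libraries and 2.42 and 1.64 CPM in FAP+ CD34- libraries. Summed over the 13 myeloid markers the level was 291 and 246 CPM in FAP+ CD34+ and 294 and 231 CPM in FAP+ CD34- libraries. Without Cd53, their most abundant member, it was 284 and 168 CPM against 157 and 96.7 CPM. The log2 fold change was positive for 12 of the 13, against 48.7% of all tested genes. At an unadjusted p of 0.05, 2 of them lay higher and 0 lower, against 9.81% and 6.65% of all tested genes (edgeR). Cd53 was 7.75 and 77.9 CPM in FAP+ CD34+ and 137 and 134 CPM in FAP+ CD34- libraries. The 10 lymphocyte markers without Thy1, which fibroblasts also make, summed to 22.4 and 4.98 CPM against 1.82 and 1.03 CPM. Of the first value 19.0 CPM was Cd3e, which encodes a CD3 chain of the T cell receptor complex. Cd3e was 0.293 CPM in FAP+ CD34+ replicate 2 and 0 in both FAP+ CD34- libraries. The other CD3 chains of the list did not share its level. Cd3g was 0.194 and 0.293 CPM in FAP+ CD34+ libraries and also 0 in both FAP+ CD34- libraries. Cd3d was 0.0969 and 0.440 CPM against 0.0757 and 0 CPM. The part of leukocytes in the level of Selplg was not tested.

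**Figure D2:**
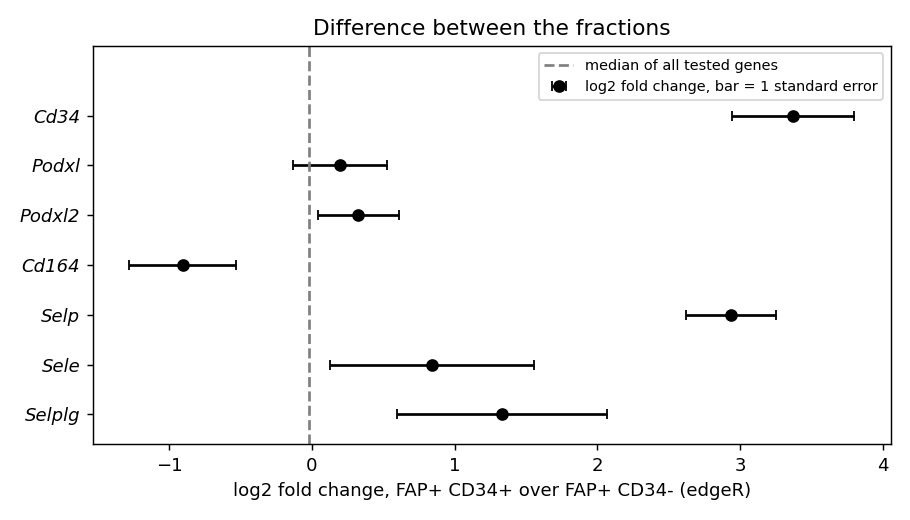
Log2 fold change of the 7 tested genes (horizontal axis, FAP+ CD34+ over FAP+ CD34-) with 1 standard error; the dashed line is the median of all tested genes (-0.02). Cd34 (3.37) and Selp (2.94) lie far to the right and Cd164 (-0.90) to the left.

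Counted over the 7 genes, the groups did not overlap for 2 in which FAP+ CD34+ libraries were higher (Cd34 and Selp), for 1 in which they were lower (Cd164), and overlapped for 4. Among all tested genes 23.4% lay apart with FAP+ CD34+ higher and 26.6% with FAP+ CD34+ lower, so neither count stands above the background. At an adjusted p of 0.05, edgeR called 0 of the 7 and 0.0% of all genes in either direction. At an unadjusted p of 0.05, 2 members lay higher, against 9.81% of all genes, and 0 lower, against 6.65%. The median log2 fold change was 0.84 over the 7 members and -0.02 over all genes. Cd34, whose protein was the basis of the sort, is part of both tallies of higher members and of this median. It is a check of the gate, and Selp was the only other member in those tallies.

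Levels of different genes were compared by the deposited RPKM, which divides by gene length. In FAP+ CD34+ cells Cd34 was the most abundant of the 7, at 30.6 and 81.3 RPKM, followed by Cd164 at 26.2 and 61.0 RPKM, Podxl2 at 10.9 and 18.4 RPKM, Sele at 12.9 and 7.74 RPKM, Selp at 4.26 and 4.83 RPKM and Podxl at 0.978 and 1.54 RPKM. The lowest was Selplg at 0.917 and 0.470 RPKM. Cd34 and Cd164 were not apart beyond their spread, nor were Podxl2 and Sele; the other neighbours in the order did not overlap. In FAP+ CD34- cells Cd164 came first at 86.5 and 120 RPKM and did not overlap with Podxl2 at 12.7 and 17.5 RPKM. Sele followed at 2.95 and 12.9 RPKM, Cd34 at 5.71 and 7.87 RPKM, Podxl at 1.46 and 1.40 RPKM, Selp at 0.773 and 0.805 RPKM and Selplg at 0.570 and 0.204 RPKM. There Sele overlapped with Podxl2 above it and with Cd34 below it. Cd34 thus ranked 1 in both FAP+ CD34+ libraries and 3 and 4 in the FAP+ CD34- libraries, and Selp stood above Podxl in the FAP+ CD34+ libraries and below it in the FAP+ CD34- libraries. Because amplification started at the poly(A) tail, the order between genes of unlike length is approximate.

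**Figure D3:**
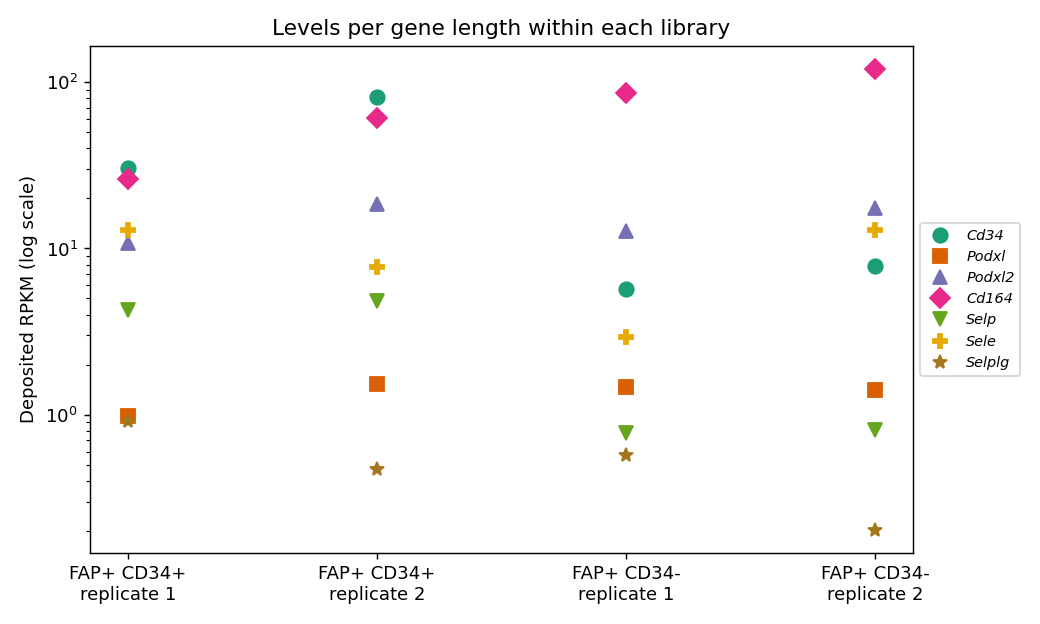
Deposited RPKM (log axis) of the 7 genes in each of the 4 libraries, 1 symbol per gene. Cd34 is at the top in the FAP+ CD34+ libraries (30.6 and 81.3 RPKM) and Cd164 in the FAP+ CD34- libraries (86.5 and 120 RPKM), and Selplg is lowest in all 4.

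Endothelium makes CD34, P-selectin and E-selectin, and most of its markers had higher levels in the FAP+ CD34+ libraries, as Cd34 and Selp did. Of 15 endothelial markers, 12 did not overlap with FAP+ CD34+ higher and 2 with FAP+ CD34+ lower. Among all tested genes these shares were 23.4% and 26.6%. At an unadjusted p of 0.05, 10 markers lay higher and 0 lower, against 9.81% and 6.65% of all tested genes, and 0 passed after adjustment (edgeR). The median log2 fold change of the markers was 1.79, against -0.02 over all tested genes. Vwf, which encodes the von Willebrand factor stored with P-selectin in endothelial granules, was 27.1 and 16.3 CPM in FAP+ CD34+ libraries and 3.03 and 3.42 CPM in FAP+ CD34- libraries. Pecam1, the junction protein CD31, was 15.8 and 11.7 CPM against 1.51 and 3.42 CPM, and Cdh5, encoding VE-cadherin and chosen after its values were seen, was 4.17 and 4.98 CPM against 0.832 and 2.05 CPM. The most abundant, Eng, a TGF-beta co-receptor also made by stromal cells, was 244 and 268 CPM against 222 and 304 CPM. Without Eng the markers summed to 158 and 136 CPM in FAP+ CD34+ and to 55.7 and 58.3 CPM in FAP+ CD34- libraries, and none was at 0 in either group. Emcn and Esam, also of the list, lay the other way, at 4.84 and 5.27 CPM against 10.7 and 6.83 CPM for Emcn and 8.91 and 9.30 CPM against 13.5 and 17.5 CPM for Esam. The part of endothelial cells in the levels of Cd34, Selp and Sele was not tested.

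**Figure D4:**
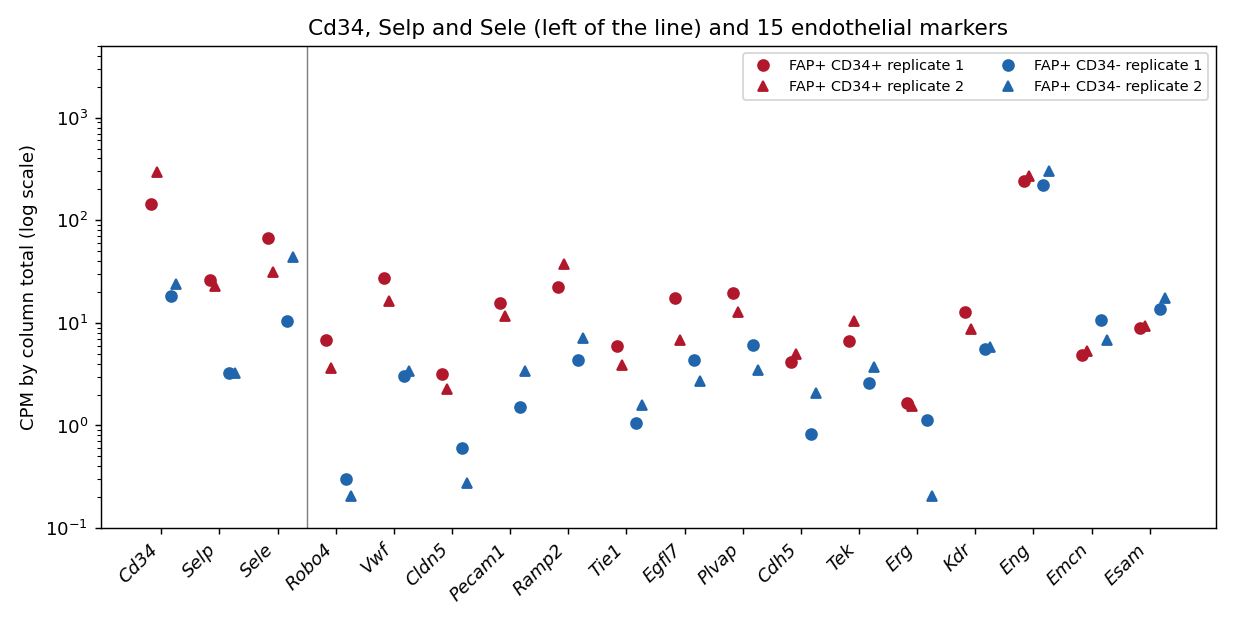
CPM by column total (log axis) of Cd34, Selp and Sele, left of the line, and of 15 endothelial markers ordered by fold change; red marks FAP+ CD34+ and blue FAP+ CD34- libraries. Most markers lie higher in the FAP+ CD34+ libraries, as Selp does, while Eng overlaps and Emcn and Esam lie lower.

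P-selectin is also a platelet protein. Of 8 platelet and megakaryocyte markers 4 had enough counts to be tested, with 2 positive and 2 negative log2 fold changes and 0 passing after adjustment (edgeR). At an unadjusted p of 0.05, 0 lay lower, against 6.65% of all tested genes, and 1 higher, against 9.81% (edgeR). That gene was Itga2b, which encodes the platelet integrin chain CD41 and was chosen after its values were seen. It was 15.4 and 9.82 CPM in FAP+ CD34+ libraries and 5.83 and 4.10 CPM in FAP+ CD34- libraries, apart between groups as Selp was (log2 fold change 1.37, SE 0.41, adjusted p = 0.230, edgeR). The sum of the 8 without Itgb3, which stromal cells make, was 38.3 and 23.6 CPM in FAP+ CD34+ and 22.9 and 22.5 CPM in FAP+ CD34- libraries. Itgb3 itself was 42.5 and 15.4 CPM against 60.4 and 42.8 CPM. Gp1bb, the most abundant gene left in that sum, was 19.3 and 11.9 CPM against 15.3 and 17.2 CPM. Its groups overlapped (log2 fold change -0.04). Pf4, the platelet chemokine, overlapped at 1.45 and 0.586 CPM against 0.832 and 0.137 CPM. Gp9, with 0 and 0.147 CPM against 0 and 0 CPM, and Ppbp, with at most 0.194 CPM in a library, were at or near 0 in all 4 libraries, where the 3 counts that a count of 0 allows amount to 0.205 to 0.291 CPM. The part of platelets in the level of Selp was not tested. Mesothelial, epithelial and pericyte markers were present in all libraries: without the most abundant gene of each list their sums were 601 and 385 against 515 and 264 CPM, 664 and 356 against 560 and 276 CPM, and 150.0 and 263 against 350.5 and 369 CPM, each FAP+ CD34+ before FAP+ CD34-. The most abundant were Krt8 in the mesothelial and epithelial lists (219 and 205 against 263 and 142 CPM) and Cspg4 among pericyte markers (243 and 51.9 against 139 and 196 CPM). Krt18 (204 and 151 against 266 and 106 CPM) and Krt19 (133 and 89.5 against 112 and 58.9 CPM) are also in both keratin-bearing lists. They therefore count in both the mesothelial and the epithelial sum. The mesothelial markers Upk3b and Lrrn4 were at most 0.303 CPM in FAP+ CD34- libraries. The groups lay apart with FAP+ CD34+ higher for 3 of 8 tested mesothelial and 1 of 9 tested epithelial markers, against 23.4% of all tested genes. They lay apart with FAP+ CD34+ lower for 4 of 8 pericyte markers, against 26.6% of all tested genes. These 4 pericyte markers, chosen after their values were seen, were Rgs5, Mcam, Higd1b and Ndufa4l2. Each had an unadjusted p under 0.05, as 6.65% of all tested genes did in that direction, but none passed after adjustment (edgeR). Rgs5, whose product dampens G protein signals in pericytes, was 2.13 and 7.33 CPM in FAP+ CD34+ libraries and 45.5 and 89.7 CPM in FAP+ CD34- libraries. Mcam, the adhesion molecule CD146, was 27.9 and 16.5 CPM against 103 and 103 CPM. The other pericyte markers, Kcnj8, Abcc9, Notch3 and Cspg4, overlapped between the groups. Over the whole pericyte list 5 log2 fold changes were negative and 3 positive.

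The nearest profiles were sought among 10522 genes with a mean of at least 5 CPM over the 4 libraries. The measure was the root mean square distance between log2(CPM + 1) values centred on each gene's mean. Closest to Cd34 came Ly6c1 (106 and 228 CPM in FAP+ CD34+, 13.7 and 17.7 CPM in FAP+ CD34- libraries; distance 0.0258), Dpt, Figf, Ly6a and Cd55, at up to 0.342. Dpt encodes the matrix protein dermatopontin, Figf the growth factor VEGF-D and Ly6a the surface protein Sca-1. Reads of Ly6c1 can be shared with its near-identical neighbour. Closest to Selp came 5031426d15rik (distance 0.191), Vwf, Prlr, Gm6300 and Npr1, at up to 0.220. Around Podxl lay Il1r1, 5133401n09rik, Atr, Dnajc9 and Ptpn13, at up to 0.0317, and around Selplg Rab11fip1, Skiv2l, Safb2, Snora31 and Stac2, at up to 0.0432. Selplg itself was only 0.615 to 4.26 CPM, where the added 1 flattens its profile, so its distances depend on that constant. The same holds in part for Selp, at 3.25 and 3.21 CPM in FAP+ CD34- libraries. With 4 points that share their libraries, such likeness is a description.

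Of 22 listed genes that build or sulfate selectin ligands 20 were tested and 0 passed in either direction (edgeR). At an unadjusted p of 0.05, 2 of the 20 lay higher and 4 lower in FAP+ CD34+ cells, against 9.81% and 6.65% of all tested genes (edgeR). The log2 fold change was positive for 5 and negative for 15, with a median of -0.42, where 48.7% of all tested genes were positive and their median was -0.02. St3gal1, which caps O-glycans with sialic acid, was 106 and 75.4 CPM in FAP+ CD34+ libraries and 38.1 and 35.3 CPM in FAP+ CD34- libraries (log2 fold change 1.33, SE 0.27, adjusted p = 0.173, edgeR). Fut4, a fucosyltransferase that makes sialyl Lewis type ligands, was 7.07 and 6.37 CPM against 17.8 and 11.8 CPM, and Fut8, which adds core fucose, was 17.7 and 26.8 CPM against 46.1 and 48.1 CPM. B3gnt3, which extends core 1 O-glycans of selectin ligands, was 0.291 and 4.25 CPM against 22.2 and 9.84 CPM. The groups did not overlap for any of these 4, but they were named for the smallest p of the list, so this adds no support. The 0.291 CPM of B3gnt3 was 3 reads, and its FAP+ CD34+ libraries differed by 14.6-fold. Fut7, the fucosyltransferase of leukocyte ligands, and Chst4, the sulfotransferase of high endothelial venules, were too low to test.

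Among 12 tested further ligands and sialomucins 0 passed, with 5 positive and 7 negative values and a median of -0.16. Spn, encoding the leukocyte sialomucin CD43, was 0.872 and 1.25 CPM in FAP+ CD34+ libraries and 7.26 and 12.8 CPM in FAP+ CD34- libraries (log2 fold change -3.22, SE 0.54, adjusted p = 0.166, edgeR). Pdpn, the mucin-type protein of fibroblasts and lymphatic vessels, was 741 and 500.5 CPM against 184 and 374 CPM, and Muc1, an epithelial mucin, was 41.8 and 34.2 CPM against 23.3 and 21.1 CPM. Both were named for a small p, so that their groups did not overlap adds no support, and neither passed (adjusted p = 0.295 and 0.235, edgeR).

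Of 10 intracellular partners, the proteins that tie sialomucin tails to the cortex or signal from them, 0 passed and the median was -0.20. Msn, encoding moesin, which links such tails to actin, was 270.0 and 211 CPM in FAP+ CD34+ and 403 and 448 CPM in FAP+ CD34- libraries. Slc9a3r1, encoding the scaffold NHERF1 that binds podocalyxin, was 19.8 and 11.3 CPM against 7.87 and 6.70 CPM. Crkl, the adaptor that binds CD34, was 5.72 and 13.5 CPM against 14.5 and 14.4 CPM, and its relative Crk was 99.9 and 129 CPM against 149.6 and 157 CPM. Adjusted p for these 4 ran from 0.267 to 0.541 (edgeR). They were named for the smallest p among partners with a mean of at least 5 CPM, so their separation adds no support. Ezr and Rdx, also of the list, overlapped between the groups. Of 9 adhesion molecules of the vessel wall 0 passed, with a median of 0.01. Vcam1, the most abundant of them, overlapped at 536 and 376 CPM in FAP+ CD34+ and 114 and 382 CPM in FAP+ CD34- libraries. Icam1, the integrin ligand that arrests leukocytes after selectins slow them, was 435 and 443 CPM against 106 and 240.2 CPM (adjusted p = 0.257, edgeR), whereas Jam3, a junction protein, was 38.8 and 47.3 CPM against 65.1 and 73.6 CPM (adjusted p = 0.276, edgeR).

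**Figure D5:**
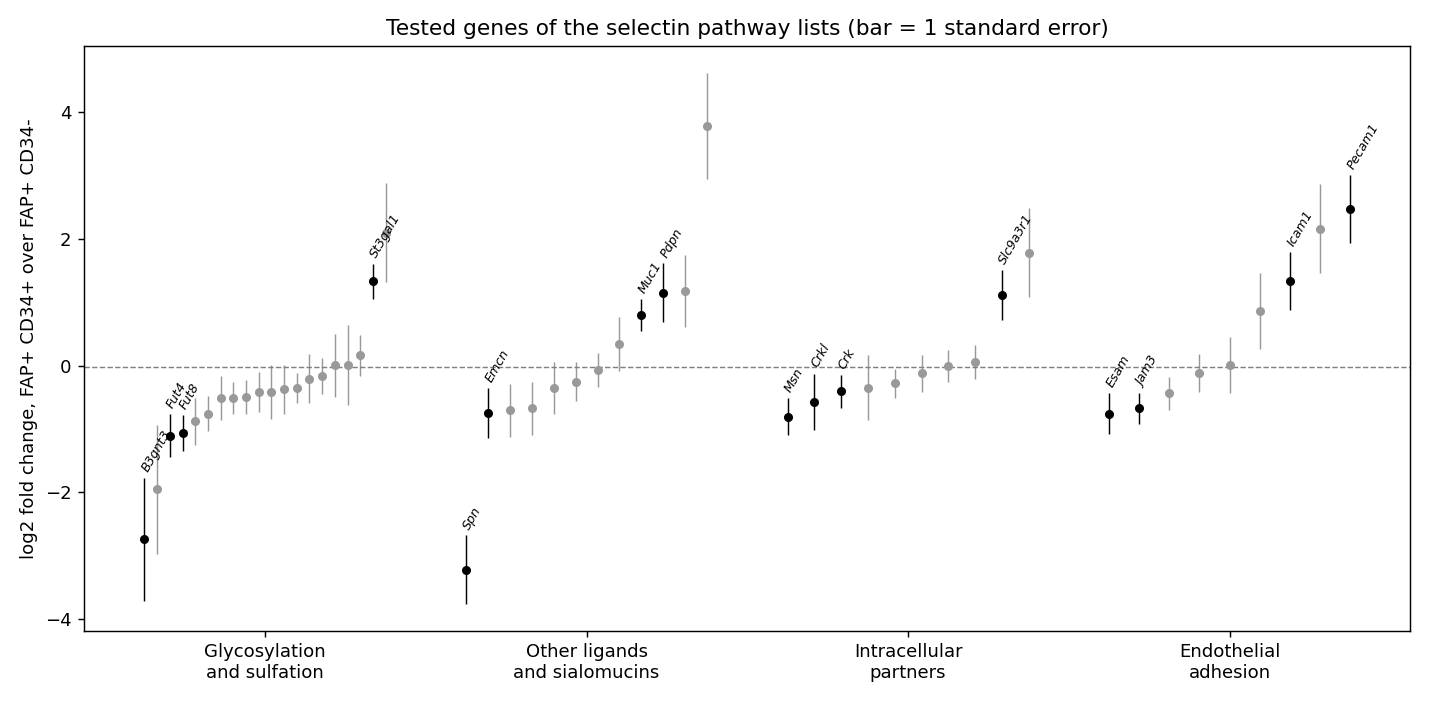
Log2 fold change (FAP+ CD34+ over FAP+ CD34-, vertical axis) with 1 standard error for each tested gene of 4 lists; black marks the genes named by rule, grey the others, and the dashed line the median of all tested genes. The glycosylation list lies mostly below the line, with St3gal1 (1.33) among its exceptions, and Spn (-3.22) is the lowest gene.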

How the data were processed

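RNA of 2 FAP+ CD34+ and 2 FAP+ CD34- libraries was sequenced after Purelink extraction and MessageAmp amplification, per the labels' protocols. The build was mm9 and the tools Bowtie2, TopHat2, HTSeq and edgeR, per the submitters' processing notes; no tool version, gene annotation or strand choice is stated in these sources. The deposited counts are whole reads per gene, not normalized. The deposited RPKM are scaled by the authors to gene length and to a library total that was not the column sum. The deposited FPKM, bias-adjusted by the authors' name for the table, cover 22558 genes. A further 14 columns per table match no sample of this series and were not used, nor was a table of estimated fragments.

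CPM are counts over the column total. Testing used edgeR 4.0.16 in R 4.3.3 (glmQLFit, glmQLFTest) with TMM scaling, filterByExpr and the group as the only term, and it was tested on simulated counts. Alternatives used DESeq2 1.42.0 and limma 3.58.1 (mean-variance trend on log2 values). The fit has 2 residual degrees of freedom, and an exact permutation test of 1 value cannot go below p = 0.333, so none was run. Standard errors are the log2 fold change over the square root of F. Named are all members, up to 4 genes of smallest p per pathway list from 5 CPM, the most abundant gene and any at 0 per marker list, the gate markers, and the 5 nearest profiles of 4 members; others are said to be chosen after their values were seen or are given as markers beside a member. Members and lists were chosen with earlier results of these data known; 1 further gene of the selection is not reported here. Limits for a count of 0 cover counting error only.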

Additional observations from a re-analysis of the deposited data

How the results depend on the processing

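At an adjusted p of 0.05 the main test called 0 genes in either direction, with 2284 at an unadjusted p of 0.05. Higher and lower calls were 2 and 0 with scaling by the column total, 2 and 0 with upper quartile scaling, 2 and 0 with a filter of 1 CPM in 2 libraries, 194 and 137 with no filter, 396 and 180 with DESeq2, 457 and 203 with edgeR's exact test, 5 and 7 on log2(RPKM + 1), and 32 and 66 on log2(RPKM + 0.1) with limma. Leaving out 1 library gave 0 to 23 higher and 0 to 2 lower calls, with 23 and 2 without FAP+ CD34+ replicate 2. RLE scaling, limma voom and limma on log2(FPKM + 1) called 0. The cause of these differences was not tested.

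Cd34 and Selp passed with no filter (log2 fold change 3.29 and 2.85), DESeq2 (3.39 and 2.96), edgeR's exact test (3.37 and 2.94) and log2(RPKM + 0.1) (2.88 and 2.38). Leaving out 1 library gave 2.79 to 3.78 for Cd34 and 2.82 to 3.05 for Selp. Over all 16 alternatives the adjusted p of Cd34 ran from 5.3e-12 to 0.630. Cd34, Selp, Sele and Selplg stayed positive and Cd164 negative in all 16. On log2(RPKM + 1), log2(RPKM + 0.1) and log2(FPKM + 1) Podxl turned to -0.12, -0.21 and -0.15 and Podxl2 to -0.0688, -0.0750 and -0.37. These scales put the median of all genes at -0.31, -0.42 and -0.31; relative to it Podxl was 0.19, 0.21 and 0.15 and Podxl2 0.24, 0.34 and -0.06. With no filter the median of all genes was 0.17, and Podxl relative to it -0.06.

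With the replicate number as a block, 39 genes were called higher and 23 lower, Cd34 (3.31, adjusted p = 0.015) and Selp (2.93, adjusted p = 0.035, edgeR) among them. The differences between replicates 1 and 2 in the 2 fractions correlated across genes (r = 0.24), but no label says that a number marks the same experiment in both fractions.

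Low counts limit Selplg and the FAP+ CD34- values of Selp.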

Other observations

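Madcam1 and Glycam1, which encode sialomucins found in mucosal and lymphoid tissue, were chosen here after their values were seen. Madcam1 was 3.10 and 1.10 CPM in FAP+ CD34+ libraries and 0.151 and 0.137 CPM in FAP+ CD34- libraries, from 32 and 15 reads against 2 and 2 reads. The groups did not overlap, and no fold is given on 2 reads a library. Glycam1 had 2 and 12 reads in FAP+ CD34+ libraries and 0 and 1 read in FAP+ CD34- libraries, too few to be tested.

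The genes beside Selplg among the protein-coding genes of chromosome 5 in the GRCm38 annotation were measured too. Tmem119 was 132 and 96.6 CPM in FAP+ CD34+ libraries and 369 and 189 CPM in FAP+ CD34- libraries (log2 fold change -1.25, adjusted p = 0.228, edgeR). Coro1c was 102 and 72.8 CPM against 180.2 and 144 CPM (log2 fold change -0.86, adjusted p = 0.247, edgeR).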
